A study of Mus musculus with 6 samples.

Results

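Excitatory neuron 7 is a cluster that the authors' deposited annotation names among 16 excitatory clusters of mouse hippocampus, and its working label is Dcn-expressing neurons. Every nucleus carrying that cluster name was taken, which gave 489 of 28650 nuclei, or 1.71%, from single-nucleus RNA sequencing of 6 libraries. In a second deposited clustering of the neurons, 479 of the 489 fell into a single group of 542 nuclei. The libraries came from male PS19 mice, which carry a human tau transgene with the P301S change under the mouse prion promoter, and all groups shared that genotype. Right hippocampi were taken from TBI mice given AAV-VEGFC, from TBI mice given AAV-GFP, from sham mice given AAV-VEGFC and from sham mice given AAV-GFP, and left hippocampi from TBI mice given AAV-VEGFC and from TBI mice given AAV-GFP. TBI was a mild cortical impact on the right side, AAV is an adeno-associated virus vector, VEGFC is a growth factor of lymphatic vessels, and GFP is the control cargo. Each combination was sequenced in 1 library. Neither the age of the mice, nor the number pooled in a library, nor whether left and right tissue came from the same mice is given in the sources used here.

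Decorin, the product of Dcn, is a small leucine-rich proteoglycan that is secreted into the extracellular matrix, where it binds collagen fibrils and growth factors. In the brain it is best known as a product of fibroblasts of the meninges and of vessel walls. In mouse hippocampus, Dcn transcripts are also known from pyramidal neurons of the ventral CA1 field, where the gene is used as a marker of that pole. Nuclei suspensions hold free RNA from broken cells, so a fibroblast transcript counted with a neuron's nucleus can come from either source. Free RNA from a single source brings the genes of that source in a fixed ratio.

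The 6 libraries held 3676 to 6002 nuclei and 15358208 to 18379148 UMIs, a UMI being a tag that marks 1 captured RNA molecule. The cluster's nuclei had the highest median doublet score of the 32 clusters, 0.081 against 0.0387 in the other nuclei, where no deposited nucleus exceeded 0.099. Excitatory neuron 14 (0.0758) and fibroblasts (0.0724) came next, and with the cluster they were also the highest in mean Dcn. Microglia, low in Dcn, followed at 0.0693. Doublet score therefore moved with the cluster and was not particular to it. The part of the score in the results was not tested by gene, since only 20 of the cluster's 489 nuclei had a score of 0.05 or less. The cluster's nuclei numbered 74 in TBI VEGFC left, 56 in TBI GFP left, 22 in TBI VEGFC right, 76 in TBI GFP right, 126 in sham VEGFC right and 135 in sham GFP right. The sham GFP library stood apart from the other 5 in what its cluster nuclei expressed, and values that depend on it are set beside those without it where they were computed. No cell barcode was shared between libraries within the cluster.

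Dcn (ENSMUSG00000019929, mm10 chr10:97479609-97518143, plus strand) was high in the cluster in every library. Summed over the cluster's nuclei, it reached 244 counts per 1000000 UMIs (CPM) in TBI VEGFC left, 293 in TBI GFP left, 293 in TBI VEGFC right, 218 in TBI GFP right, 228 in sham VEGFC right and 123 in sham GFP right. Sham GFP was the lowest of the 6 and TBI VEGFC right rested on 33 Dcn UMIs. The mean was 233 ± 62.9 CPM (SD, n = 6 libraries), and 256 ± 35.6 CPM over the 5 libraries without sham GFP. Fibroblast nuclei averaged 329 ± 93.7 CPM, with 415, 150, 324, 353, 389 and 343 CPM in the same order of libraries, so the 2 ranges overlapped.

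Among excitatory clusters, Excitatory neuron 14 came next at 91.6 ± 60.0 CPM, with a range of 0 to 165 CPM that overlapped cluster 7, followed by Excitatory neuron 11 at 32.4 ± 11.4 CPM. The other 28 clusters had means of 0 to 19.9 CPM. Of the 1535 Dcn UMIs in all nuclei, 529 (34.5%) lay in cluster 7 and 13.6% in fibroblasts. Because the clusters were drawn from these same genes, the levels across clusters are descriptions and carry no test.

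**Figure D1:**
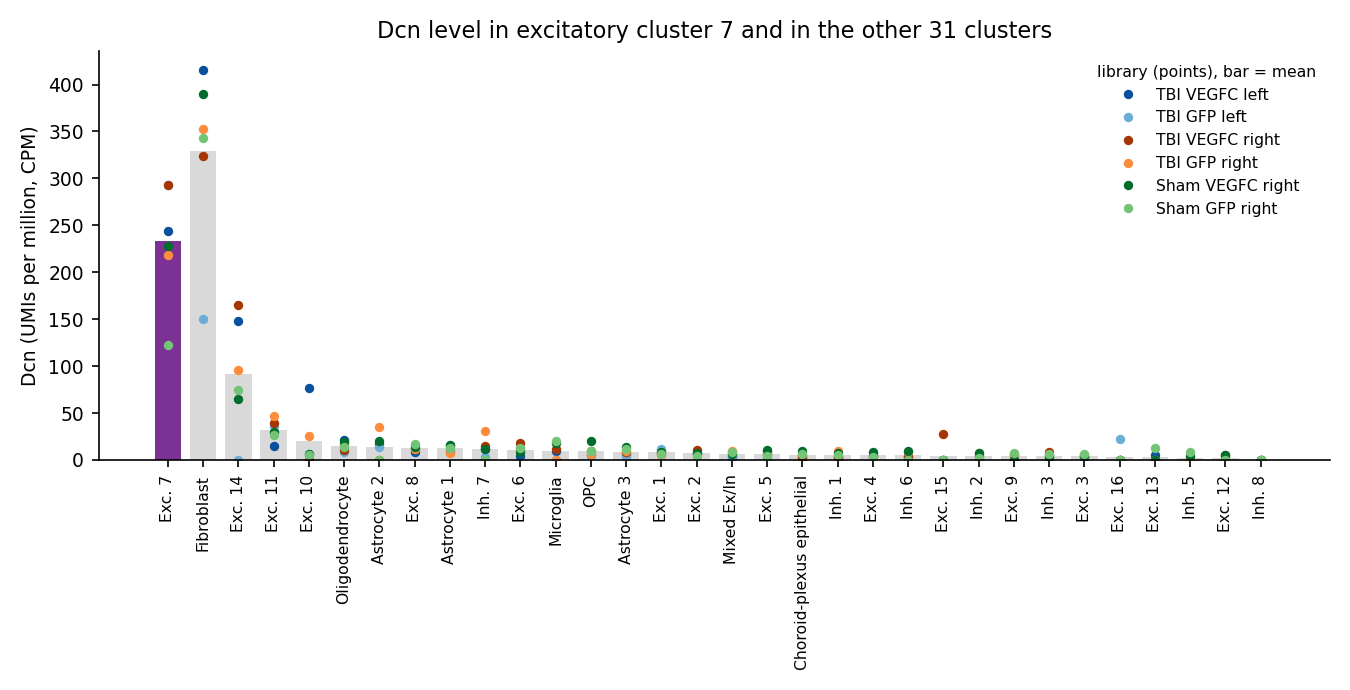
Dcn level in CPM (vertical axis) in each deposited cluster, with a point for each library. Fibroblasts and cluster 7 stand at means of 329 and 233 CPM, and the 28 clusters outside the 4 highest have means of at most 19.9 CPM.

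Dcn was detected in 216 of the 489 nuclei, or 44.2% (exact 95% interval 39.7 to 48.7), and in 129 of 412 fibroblasts, or 31.3%. The median depths were 4873 UMIs in cluster 7 and 1359.5 UMIs in fibroblasts. With every nucleus thinned to 1000 UMIs the shares were 17.2% in cluster 7 and 24.9% in fibroblasts, and no other cluster outside Excitatory neurons 14 and 11 exceeded 1.86%, which is the level against which free RNA can be read. By library, 59.5, 51.8, 59.1, 61.8, 43.7 and 20.7% of the cluster's nuclei had a Dcn UMI, in the order used above. Sham GFP was again lowest, and after thinning it had 9.21% against 18.7 to 24.7% in the other 5. Without sham GFP the share was 53.1%, 188 of 354 nuclei. A nucleus without a Dcn UMI at this depth may still hold Dcn RNA.

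Other fibroblast transcripts were far below their fibroblast levels in the cluster. A list of 16 fibroblast genes without Dcn, which holds collagens, matrix proteins and transporters of meningeal fibroblasts, summed to 93.4 CPM over the pooled cluster nuclei, against 53.6 CPM in the other excitatory clusters and 9567 CPM in fibroblasts. Dcn itself thus stood at 61.4% of its pooled fibroblast level while the list stood at 0.977% of its own. The list sum of the cluster was still the highest of any excitatory cluster. The ratio in free RNA was not measured, so the list to Dcn ratio of fibroblast nuclei was used. At that ratio, 529 Dcn UMIs would come with 14837 list UMIs, and 236 were counted. All 16 genes were below the number given by that ratio, and 3 of them, Col1a2, Foxd1 and Slc47a1, had no UMI. Col1a2, a chain of type I collagen, had 0 UMIs in cluster 7 and 193 in fibroblasts, and Foxd1, a transcription factor of stromal cells, had 0 and 205.

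The number of Dcn UMIs per list UMI was 2.42 in TBI VEGFC left, 2.14 in TBI GFP left, 5.5 in TBI VEGFC right, 2.02 in TBI GFP right, 2.13 in sham VEGFC right and 2.02 in sham GFP right. In fibroblasts of the same libraries it was 0.0459, 0.0167, 0.0330, 0.0379, 0.0383 and 0.0359. The ranges did not overlap, and the pooled ratios of 2.24 and 0.0357 differed 62.9-fold. A high ratio was not particular to the cluster. Excitatory neuron 14 had a pooled ratio of 4.15, and Excitatory neurons 10 and 11 had 0.5 and 0.480. Among clusters low in Dcn, it was 0.209 in oligodendrocytes, 0.133 in Excitatory neuron 1 and 0.0201 in microglia. With only Col1a1, Col1a2 and Col3a1 in the list, the ratios were 18.9 in cluster 7 and 0.567 in fibroblasts. In all, 9 members of the list were above the other excitatory clusters. Col1a1, the other chain of type I collagen, stood farthest above them by ratio of the 16, at 10.7 CPM (27 UMIs) against 0.402 CPM, where fibroblasts had 167 CPM. Fbln1 was at 13.9 CPM against 2.34 CPM, Cped1 at 19.4 CPM against 5.07 CPM and Colec12 at 16.2 CPM against 6.84 CPM.

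**Figure D2:**
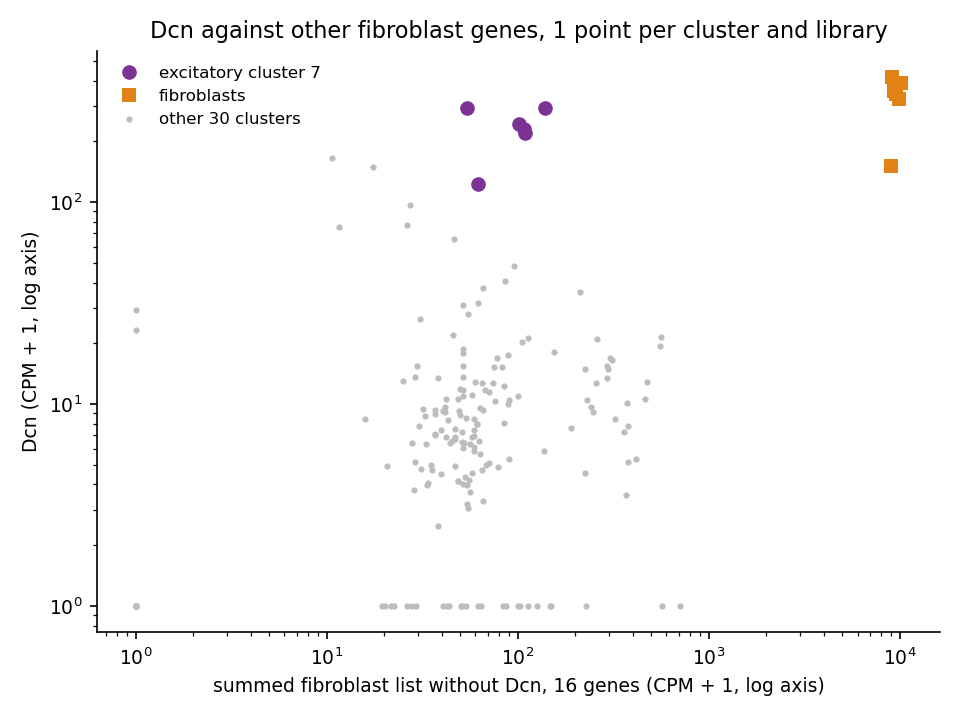
Dcn level (vertical axis) against the summed level of the 16 other fibroblast genes (horizontal axis), both as CPM + 1 on log axes, with a point for each cluster and library. Cluster 7 has 123 to 293 CPM of Dcn, a range that overlaps the fibroblasts' 150 to 415 CPM, and 53.4 to 137 CPM of the list, where fibroblasts have 9567 CPM pooled.

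Inside the cluster, the fibroblast list was at like levels in nuclei with and without Dcn. It stood at 95.1 CPM in the 216 nuclei with a Dcn UMI and at 92.0 CPM in the 273 without, and it was higher in the nuclei with Dcn in 3 of 6 libraries. A list UMI was present in 73 nuclei with Dcn (33.8%) and in 87 without (31.9%), and in all 129 fibroblasts with Dcn. Of the UMIs of Col1a1, Col1a2 and Col3a1, 4 lay in nuclei with Dcn and 24 in nuclei without, and a Col1a1 UMI was in 2 of 216 nuclei with Dcn (0.926%) and 16 of 273 without (5.86%). Dcn-positive nuclei of the cluster carried neuronal transcripts. Snap25, a protein of the synaptic fusion machinery, was detected in 214 of 216 of them (99.1%) and in 268 of 273 nuclei without Dcn (98.2%), but in 5 of 129 Dcn-positive fibroblasts (3.88%). Slc17a7, the vesicular glutamate transporter of forebrain excitatory neurons, was detected in 130 of 216 (60.2%) and 172 of 273 (63.0%), against 9 of 129 Dcn-positive fibroblasts (6.98%). Col1a2 was in 0 of 216 Dcn-positive nuclei, which allows up to 1.69% of nuclei with a Col1a2 UMI at this depth and sets no limit on nuclei that express it, while 41 of 129 Dcn-positive fibroblasts (31.8%) had it. The inhibitory markers Gad1, Gad2 or Slc32a1 were in 10 of 216 (4.63%) and 12 of 273 (4.40%). Fibroblasts, which should lack them, had 16 of 412 (3.88%), and 8 of 129 (6.20%) among those with Dcn, at lower depth. Median doublet scores were 0.0802 in nuclei with Dcn and 0.0818 in nuclei without.

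Checked against its markers, the cluster held glutamatergic and pan-neuronal transcripts, while several other members of the excitatory list were low. Slc17a7 averaged 218 ± 15.1 CPM in the cluster, against 249 ± 17.3 CPM in the other excitatory clusters, and Snap25 averaged 1272 ± 105 CPM, against 748 ± 38.3 CPM (SD, n = 6 libraries each). The excitatory list as a whole summed to 1119 ± 187 CPM, against 1766 CPM, with 1 of 8 genes above the other excitatory clusters. Camk2a, a calcium-dependent kinase of excitatory synapses, was at 623 CPM against 986 CPM, and Neurod6, a pyramidal neuron transcription factor, at 17.8 to 100.1 CPM over the libraries against a mean of 142 CPM. Lists for other cell types gave mixed values. The choroid plexus list summed to 401 ± 112 CPM, against 319 CPM in the other excitatory clusters, and averaged 454 CPM over libraries in nuclei with Dcn and 319 CPM in nuclei without. It holds Htr2c, which is also in the ventral CA1 list, and Ttr, at 179 CPM in the cluster. Its part in the results was not tested. The astrocyte list summed to 53.2 CPM against 44.8 CPM in the other excitatory clusters, the oligodendrocyte list to 113 CPM against 216 CPM, the microglia list to 145 CPM against 157 CPM, the endothelial list to 14.5 CPM against 13.5 CPM, and the inhibitory list to 51.2 CPM against 502 CPM.

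Lists for hippocampal fields and neighbouring regions gave no single match. The ventral CA1 list, which includes Dcn, summed to 680 ± 123 CPM in the cluster, against 111 CPM in the other excitatory clusters, with 6 of 6 genes above them. Among its members, Gpc3, a glypican that binds Wnt and Hedgehog ligands, was at 110 ± 45.0 CPM against 4.27 CPM, the serotonin receptor gene Htr2c at 198 CPM against 65.6 CPM, and the transcription factor Nr2f2 at 102 CPM against 14.9 CPM. Cluster 7 ranked 2 of the 16 excitatory clusters for the ventral CA1 list, after Excitatory neuron 11. The general CA1 list was no higher than elsewhere, 357 ± 126 CPM against 403 CPM, and Wfs1, a gene typical of dorsal CA1, was at 8.35 CPM against 9.49 CPM. An amygdala list summed to 501 ± 178 CPM, against 131 CPM, through 2 of its 4 genes, Etv1 at 396 CPM and Rspo2 at 104 CPM. For the amygdala list cluster 7 ranked 2 among excitatory clusters, after Excitatory neuron 13 at 550 CPM in pooled nuclei. The CA3 list stood at 326 CPM against 669 CPM, the dentate granule list at 187 CPM against 799 CPM, and the subiculum list at 14.2 CPM against 41.2 CPM. On these values the cluster is called by its number and by Dcn, and by no field of the hippocampus.

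Decorin's own family did not follow it. The list of 15 small leucine-rich proteoglycans summed to 262 ± 61.1 CPM in the cluster, against 35.9 CPM, the highest sum of any excitatory cluster, and Dcn made up nearly all of it. Of its relatives, Bgn had 0 UMIs, Fmod 1, Lum 3, Ogn 10, Epyc 17 and Podn 23. Enzymes that build its chondroitin and dermatan sulfate chains summed to 1028 CPM, against 1049 CPM, and decorin's ligands and receptors to 388 CPM, against 395 CPM. Collagen genes summed to 528 CPM, against 447 CPM, with 17 of 23 above the other excitatory clusters. Lists for tau and its kinases (2303 CPM against 2549 CPM) and the unfolded protein response (1118 CPM against 1134 CPM) also differed little.

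The 20 genes with the largest ratio over the other excitatory clusters were ranked among 2828 genes with at least 50 CPM in the cluster in every library. Another 4 clone-named models ranked among them and were counted but not named. Dcn led with a log2 ratio of 3.71, on a scale of log2(CPM + 10). Gpc3 followed at 3.07, Arhgap6 at 2.85, Nnat at 2.78, the cadherin Cdh4 at 2.77 and Pde11a, a cyclic nucleotide phosphodiesterase known from ventral CA1 of mice, at 2.54. Further down stood Unc5d, a netrin receptor, at 1625 CPM against 371 CPM, the protocadherin Pcdh7 at 1171 CPM against 287 CPM, and Slit2, a guidance ligand, at a log2 ratio of 1.80. Nnat, which encodes the small membrane protein neuronatin, was at 991 ± 177 CPM against 136 CPM. Its locus (mm10 chr2:157560078-157562522, plus strand) lies within Blcap (chr2:157556362-157571274, minus strand), on the opposite strand. How reads of the pair were assigned was not checked. Fibroblasts exceeded the cluster in 5 of the 20 genes, Dcn, Arhgap6, Nnat, Nr2f2 and Camk2d. The cluster was the highest of all clusters in 0 of the 20. Sham GFP was the lowest library in 12 of the 20 and the highest in 5. Ranked without sham GFP, 17 of the 20 stayed among the first 20, all but Gabra3, Slit2 and Pdzrn4, and the Dcn ratio was 3.81.

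Across the 16 excitatory clusters, the 8 genes most like Dcn, among those with at least 20 CPM in the pooled cluster and leaving out clone-named models, were Gpr101, an orphan receptor (Pearson r = 0.89 on log2(CPM + 1)), Blcap (0.82), Nnat (0.78), Kansl2 (0.74), the protease Bace2 (0.74), the secreted glycoprotein Reln (0.73), the endopeptidase Ecel1 (0.73) and Nr2f2 (0.71). These coefficients describe 16 points drawn from the same libraries and carry no p. Gpr101 was low, at 21.8 CPM in the cluster, while Nnat was at 947 CPM in the pooled nuclei.

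Within the cluster, nuclei with a Dcn UMI differed from those without in many other genes. UMIs were summed per library and set, Dcn was left out, and edgeR's quasi-likelihood test was fitted with library as a block, a comparison chosen after the data had been seen. Of 5140 genes tested, 238 (4.63%) passed an adjusted p of 0.05, 89 higher (1.73%) and 149 lower (2.9%) in nuclei with Dcn, and 21 of the 238 were clone-named models. Without sham GFP 158 genes passed, 151 of them shared with the 238, and with nuclei matched on depth 176 passed, 166 of them shared. The median depth was 4965 UMIs with Dcn and 4720 UMIs without. DESeq2 called 126 genes.

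Nnat reached 1394, 1495, 1439, 1302, 1584 and 1184 CPM in nuclei with Dcn, against 569, 599, 383, 546, 747 and 491 CPM in nuclei without, from TBI VEGFC left to sham GFP right as above. The 2 sets did not overlap, and the log2 difference was 1.26 ± 0.12 (SE; edgeR adjusted p = 1.07e-07). Gpc3 was at 179.8, 241, 132, 174, 112 and 124 CPM with Dcn, against 101, 31.1, 0, 136, 40.5 and 38.4 CPM without (log2 difference 1.26 ± 0.26, edgeR adjusted p = 0.00232). It was higher with Dcn in 6 of 6 libraries, least in TBI GFP right. Mpped1, a metallophosphoesterase gene enriched in CA1, was at 268, 248, 264, 209, 206 and 149.6 CPM with Dcn, against 161, 117, 45.1, 123, 47.9 and 24.5 CPM without (1.35 ± 0.22, edgeR adjusted p = 0.000277). Dlk1, which encodes a transmembrane relative of Notch ligands, differed by 2.13 ± 0.36 and Plpp4, a phospholipid phosphatase gene, by 2.44 ± 0.51. The other 7 named genes that were higher with Dcn were Tmem255a (1.89), Ick (1.52), the fibulin gene Fbln2 (1.45), the immediate early gene Jun (1.44), Galnt14 (1.30), Cpne2 (1.25) and B3galt2 (1.24). Ick, Fbln2 and Jun no longer passed when nuclei were matched on depth, with edgeR adjusted p of 0.209, 0.108 and 0.0973.

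Luzp2, a leucine zipper protein gene (mm10 chr7:54835498-55268885, plus strand), marked nuclei without Dcn. It was at 6.31, 21.3, 0, 11.8, 8.97 and 19.5 CPM with Dcn, against 136, 101, 428, 123, 114 and 224 CPM without, and the sets did not overlap (log2 difference -3.73 ± 0.32, edgeR adjusted p = 2.42e-08). Cadm2, a synaptic adhesion gene (chr16:66655421-67620908, minus strand), was at 338, 213, 382, 339, 215 and 1568 CPM with Dcn, against 1263, 762, 3157, 864, 1347 and 3462 CPM without (-1.94 ± 0.17, edgeR adjusted p = 2.42e-08). The sham GFP library was the highest in both sets, and it alone made the ranges overlap. Angpt1, a ligand of the endothelial receptor Tie2 (log2 difference -3.60), the transcription cofactor gene Dach1 (-3.03), the neuregulin receptor gene Erbb4 (-2.95), the potassium channel gene Kcnk2 (-2.87), the bicarbonate transporter gene Slc4a4 (-2.80), the semaphorin gene Sema6a (-2.34), the guanylate cyclase gene Gucy1a1 (-2.22), Pld5 (-1.88), the kinase inhibitor gene Camk2n1 (-1.87) and the estrogen receptor gene Esr1 (-1.84) were also lower with Dcn in 6 of 6 libraries. Without sham GFP, Erbb4 (-2.61), Kcnk2 (-2.97), Pld5 (-2.75), Ick (1.03) and Jun (1.21) kept their direction and no longer passed, with edgeR adjusted p of 0.0677, 0.0790, 0.0640, 0.278 and 0.143. Gucy1a1 no longer passed with library totals (edgeR adjusted p = 0.0533), with DESeq2 (adjusted p = 0.0656), or without sham VEGFC, TBI GFP right, TBI GFP left or TBI VEGFC left (edgeR adjusted p of 0.0510 to 0.194). Pld5 was also lost with library totals, with limma-voom and without TBI GFP left or TBI VEGFC right.

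**Figure D3:**
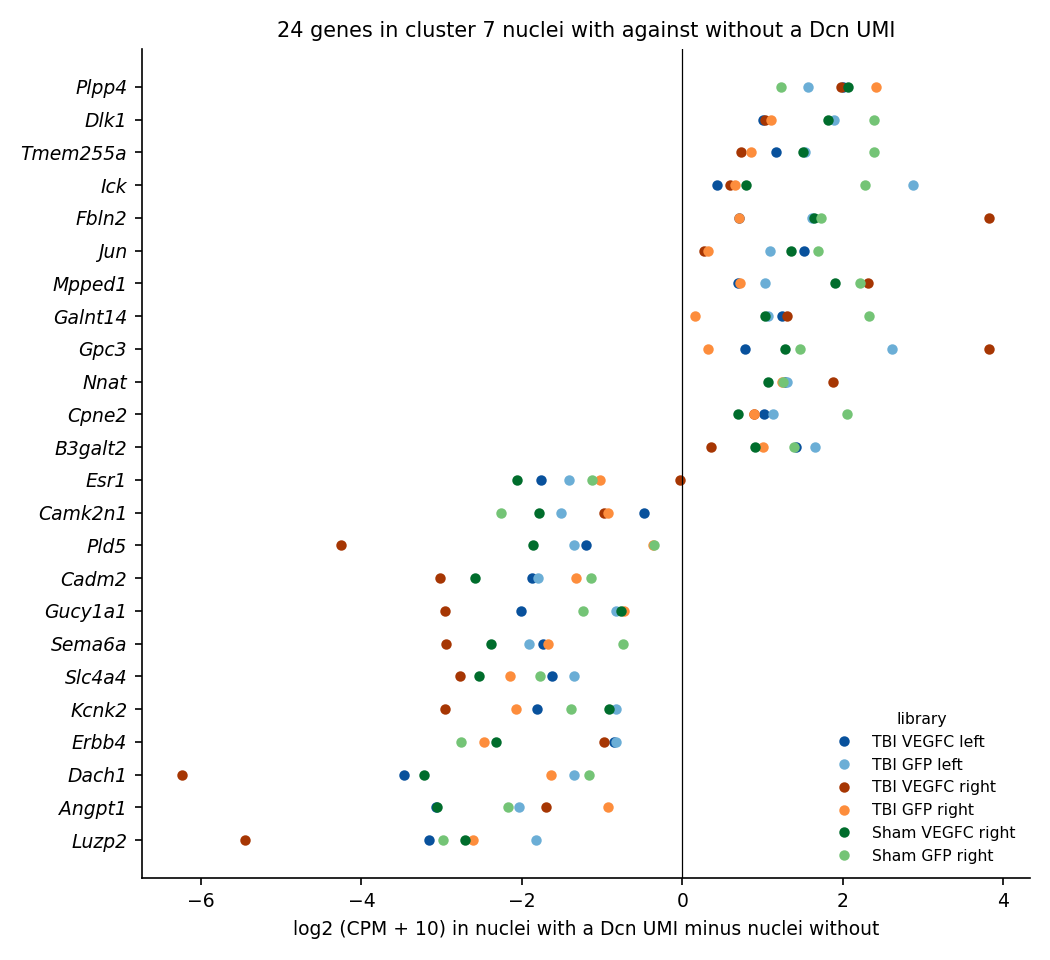
Difference in log2(CPM + 10) between cluster 7 nuclei with and without a Dcn UMI (horizontal axis) for the 24 named genes, with a coloured point for each of 6 libraries. All points of the 12 upper genes lie right of 0 and all points of the 12 lower genes left of it.

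Of the 19 leading genes other than Dcn, all were tested in this comparison. Of these, 6 were higher with Dcn, Gpc3, Nnat, Cpne2, Pcdh7 (0.81), Efna5 (1.05) and Pcdh15 (0.90), and Cdh4 was lower (-1.50), where 1.73% of all genes were higher and 2.9% lower. Their median difference was 0.34, against 0.01 over all genes tested. The leading genes were chosen from these same nuclei by their level in the cluster, as Dcn was. The shares over all genes are not matched on level, so the excess carries no test. Of the 7 tested genes most like Dcn across clusters, Nnat was higher and the others did not pass, including Bace2 (1.34 ± 0.45, edgeR adjusted p = 0.0920) and Nr2f2 (-0.44 ± 0.21, edgeR adjusted p = 0.349).

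Of the 238 called genes, 17 were members of the marker and pathway lists, 8 higher and 9 lower with Dcn, among 127 list genes tested (13.4%, against 4.63% of all genes). They fell in 13 of the 28 lists with a tested member. In the ventral CA1 list, 1 of 3 tested genes was higher with Dcn (Gpc3), and in the CA1 list 1 of 4 (Mpped1). Rspo2, a Wnt pathway activator, was higher by 1.94 ± 0.37. The upper-layer cortical list had 2 of 4 tested genes lower, Rorb (-1.32) and Rasgrf2 (-0.89), and Stard5, a lipid transfer gene of the CA2 list, was lower by a log2 difference of -1.61. Among glutamate receptor genes, Grm8 (0.69) was higher and Grik2 (-0.58) was lower. Lists for tau and its kinases and for synaptic vesicle release had 0 calls among 12 and 15 tested genes by edgeR. No gene of the fibroblast list had enough UMIs to be tested.

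The libraries differed in how many of each kind of nucleus they held. Nuclei with Dcn made up 1.20, 0.534, 0.304, 0.949, 0.916 and 0.649% of all nuclei from TBI VEGFC left to sham GFP right, and nuclei without Dcn 0.816, 0.497, 0.210, 0.586, 1.18 and 2.48%. Sham GFP lay inside the range of the other libraries for nuclei with Dcn and above it for nuclei without (107 nuclei, exact 95% interval 2.04 to 2.99%). To see whether its gene levels followed the same split, 56 higher and 102 lower genes were chosen in the other 5 libraries alone. In sham GFP the higher set summed to 35570 CPM, against 45838 to 52534 CPM in the others, and the lower set to 63307 CPM, against 41161 to 48871 CPM. Within sham GFP, the higher set stood at 53495 CPM in nuclei with Dcn and 30754 CPM in nuclei without, and the lower set at 42334 CPM and 68942 CPM. In the 5 libraries used for the choice, the higher set ranged from 51293 to 60823 CPM with Dcn and 35363 to 39307 CPM without. Their lower set ranged from 30560 to 34093 CPM with Dcn and 52980 to 66362 CPM without. Sham GFP lay inside these ranges only for the higher set in nuclei with Dcn.

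Marker lists moved with that library too. Its ventral CA1 list was the lowest of the 6, 450 CPM against 658 to 804 CPM, as were its CA1 list (163 CPM against 243 to 477 CPM) and amygdala list (255 CPM against 433 to 771 CPM). Its dentate granule list was the highest, 389.8 CPM against 105 to 213 CPM, as was its upper-layer cortical list, 456 CPM against 92.7 to 285 CPM. Their part in the comparisons of injury and vector that follow was not tested, and the tissue or mice of that library cannot be told apart from the sham GFP condition, which has 1 library.

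**Figure D4:**
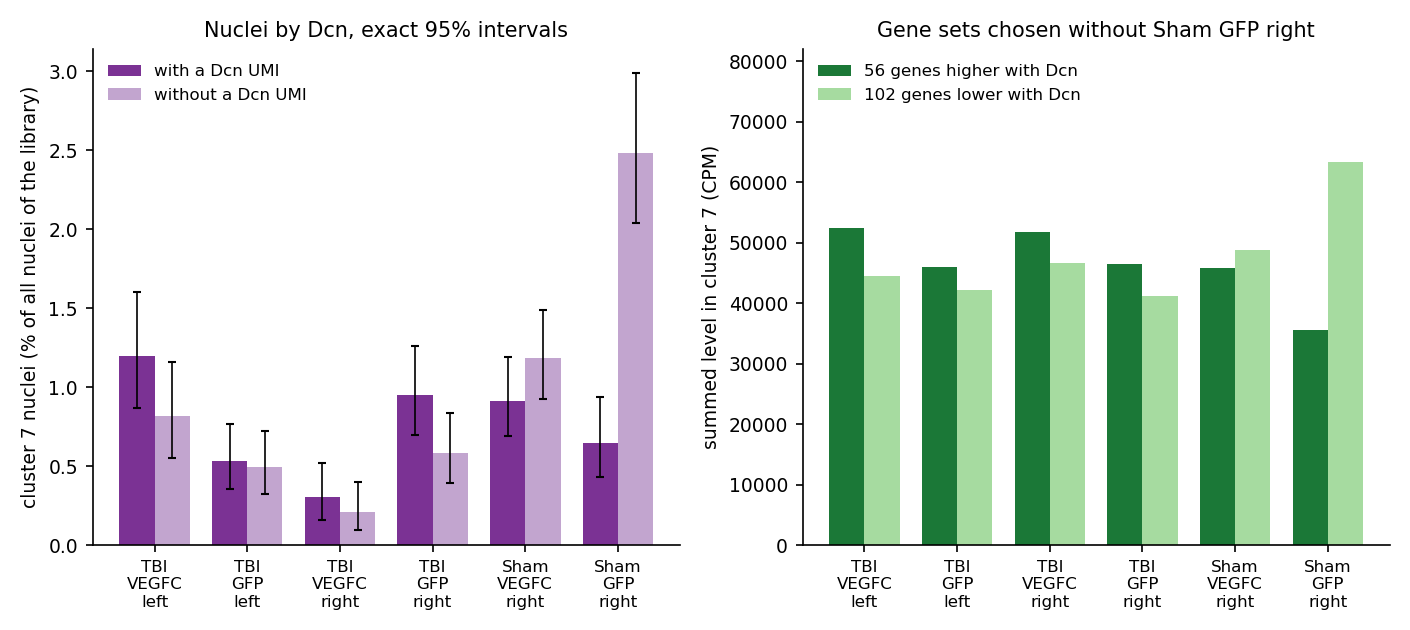
Left, nuclei of cluster 7 with and without a Dcn UMI as a percentage of all nuclei in each library, with exact 95% intervals. Right, summed CPM in cluster 7 of 56 genes higher and 102 genes lower with Dcn, chosen without sham GFP right, which has the lowest bar of the higher set (35570 CPM) and the highest bar of the lower set (63307 CPM).

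The study's design asks first whether VEGFC changed the tissue relative to GFP. The cluster made up 2.01% of nuclei in TBI VEGFC left and 1.03% in TBI GFP left, 0.514% in TBI VEGFC right and 1.54% in TBI GFP right, and 2.10% in sham VEGFC right and 3.13% in sham GFP right. The VEGFC to GFP ratios were 1.95, 0.335 and 0.671, so the sign differed between pairs. Their mean log2 ratio was -0.40 (exact two-sided sign-flip permutation p = 0.75, where 3 pairs allow no p below 0.25). Counted over nuclei with Dcn alone, it was 0.0052. In nuclei, a smaller share and fewer captured nuclei of a type cannot be told apart.

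In gene levels, VEGFC gave 0 calls among 8291 genes (0%) over the 3 pairs, with edgeR, with DESeq2 and with limma-voom, while 230 genes had an unadjusted p under 0.05 in edgeR. Dcn was at 244 CPM in TBI VEGFC left against 293 CPM in TBI GFP left, 293 against 218 CPM on the right, and 228 against 123 CPM in sham, a log2 difference of 0.34 ± 0.22 (edgeR adjusted p = 1.00). Grik3, a kainate receptor subunit gene, had the smallest p among higher values, with 105 and 59.3 CPM in TBI VEGFC left and TBI GFP left, 133 and 49.1 CPM on the right, and 68.7 and 30.3 CPM in sham VEGFC and sham GFP. It was higher with VEGFC in 3 of 3 pairs and did not pass (1.11 ± 0.26, edgeR adjusted p = 1.00). Glis3, a zinc finger transcription factor gene of the dentate list, came closest to the threshold among lower values (-2.90 ± 0.46, edgeR adjusted p = 0.204), with 3.88, 0 and 14.2 CPM in VEGFC libraries and 22.2, 12.3 and 109 CPM in GFP libraries. Without a filter on low counts it was the 1 gene that passed (-2.93 ± 0.50, edgeR adjusted p = 9.02e-05), although its difference and SE hardly changed. Without sham GFP it had too few UMIs to be tested. All 4 tested genes of the VEGF ligand and receptor list had positive differences, among them Vegfd (1.04 ± 0.55) and Nrp2, the VEGFC co-receptor (0.31 ± 0.27), and none passed. Without sham GFP 3 of 5 were positive, and 14 genes of all 8966 tested passed with edgeR. The 31 lists with a tested member held 0 calls. Within the 4 TBI libraries alone, 28 genes passed, all higher with VEGFC. That fit and the one without sham GFP had fewer residual degrees of freedom than the full fit, so their counts are not on its scale.

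TBI on the injured right side against sham right gave 1 call of 8291 genes (0.0121%), a clone-named model, Gm32647, which was lower (log2 difference -2.69, edgeR adjusted p = 0.0314). It stood at 17.8 and 39.3 CPM in the TBI right libraries and at 89.0 and 259 CPM in sham, where sham GFP was the highest. DESeq2 and limma-voom called 0 genes, and 327 genes had an unadjusted p under 0.05 in edgeR. A fit without either sham library leaves a single library in that group, so its count is not on the scale of the full fit. Without sham GFP 0 genes passed, and without sham VEGFC 239 did. Dcn was at 293 and 218 CPM in TBI VEGFC right and TBI GFP right, against 228 and 123 CPM in sham VEGFC right and sham GFP right, and did not pass (0.53 ± 0.28, edgeR adjusted p = 1.00).

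The 31 lists with a tested member held 0 calls by edgeR in this comparison as well, so their values are given without a direction call. Log2 differences were positive in all 4 tested CA1 genes (median 1.34) and in 4 of 6 ventral CA1 genes (median 0.77), and negative in 4 of 5 dentate genes (median -1.16), against a median of -0.01 over all genes. Without sham GFP the medians were 0.71 for 5 CA1 genes, 0.39 for 6 ventral CA1 genes and 0.66 for 4 dentate genes, so the dentate median turned. Fbln2 had the smallest p among higher values (1.96 ± 0.38, edgeR adjusted p = 0.307), at 80.0 and 113 CPM in TBI right against 38.4 and 17.9 CPM in sham, and differed by 1.42 ± 0.48 without sham GFP (edgeR adjusted p = 0.980). Nrp2 was at 97.8 and 46.6 CPM in TBI right against 127 and 128 CPM in sham (-1.07 ± 0.34, edgeR adjusted p = 1.00).

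TBI left against TBI right gave 0 calls of 8291 genes (0%) with edgeR, DESeq2 and limma-voom, and 215 genes had an unadjusted p under 0.05 in edgeR. This comparison shares the TBI right libraries with the one above. Reln had the smallest p, with 27.1 and 22.2 CPM in TBI VEGFC left and TBI GFP left against 231 and 68.7 CPM in TBI VEGFC right and TBI GFP right. The 2 sides did not overlap, yet the difference of -2.34 ± 0.50 did not pass (edgeR adjusted p = 1.00). The sham libraries, at 117 and 121 CPM, lay inside the range of TBI right. Dcn differed by 0.09 ± 0.28 between sides.

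Whether the differences in the cluster were unlike those in Excitatory neuron 1 of the same libraries, the cluster with the highest CA1 list (1088 CPM), was tested as an interaction over 13045 genes. For TBI right against sham right, 24 genes (0.184%) passed, 7 with a higher difference in cluster 7 (0.0537%) and 17 with a lower one (0.13%). Pcdh15, a protocadherin gene, was at 1067 and 1041 CPM in TBI VEGFC right and TBI GFP right and at 726 and 317 CPM in sham VEGFC right and sham GFP right in cluster 7, while cluster 1 had 18.9 and 27.2 CPM in TBI right and 34.9 and 28.8 CPM in sham (interaction 1.49 ± 0.27, edgeR adjusted p = 0.000123). Kcnip4, a partner of A-type potassium channels, was at 1832 and 1716 CPM in TBI right and 2817 and 5909 CPM in sham in cluster 7, while in cluster 1 it was at 9185 and 8484 CPM in TBI right and 9015 and 9349 CPM in sham (-1.28 ± 0.19, edgeR adjusted p = 5.55e-07). In both genes sham GFP was the library farthest from the others. Gpc5, a glypican gene, was at 196 and 110.5 CPM in TBI right against 68.7 and 24.8 CPM in sham in cluster 7 (interaction 1.90 ± 0.32, edgeR adjusted p = 7.89e-06). In the sets chosen without sham GFP, Pcdh15 was higher with Dcn, while Kcnip4 and Gpc5 were lower. The part of the mix of nuclei in these interactions was not tested. In cluster 7 alone Gpc5 differed by 1.69 ± 0.39 (edgeR adjusted p = 0.716) and Kcnip4 by -1.29 ± 0.28 (edgeR adjusted p = 0.586). Both fits use the same 6 libraries, and the interaction had smaller SEs for these genes. Its p-values for them also matched a normal distribution, which treats the spread between libraries as known. Those of cluster 7 alone came from 2 residual degrees of freedom and a median of 11.07 borrowed across genes. The interaction's p-values and number of calls are therefore not on the same scale as those of cluster 7 alone. Without sham GFP none of the 24 passed with edgeR, and the interactions were 1.25 for Pcdh15, -0.79 for Kcnip4 and 1.29 for Gpc5, with edgeR adjusted p of 0.245, 0.821 and 0.737. Without sham VEGFC 127 genes passed, without TBI GFP right 1, without TBI VEGFC right 52, and without either left library 8.

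For VEGFC against GFP the same test gave 2 calls (0.0153%), both lower, Gm32647 and Npas3, a neuronal transcription factor gene. Npas3 was at 424 CPM in sham GFP and at 49.1 to 107 CPM in the other 5 libraries, and it was lower with VEGFC in 2 of 3 pairs (interaction -1.95 ± 0.34, edgeR adjusted p = 8.59e-05). Without sham GFP its interaction was 0.13, so the direction turned. With each library left out in turn, 5 to 13 genes passed, all higher without sham GFP (12) or sham VEGFC (13) and all lower otherwise.

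**Figure D5:**
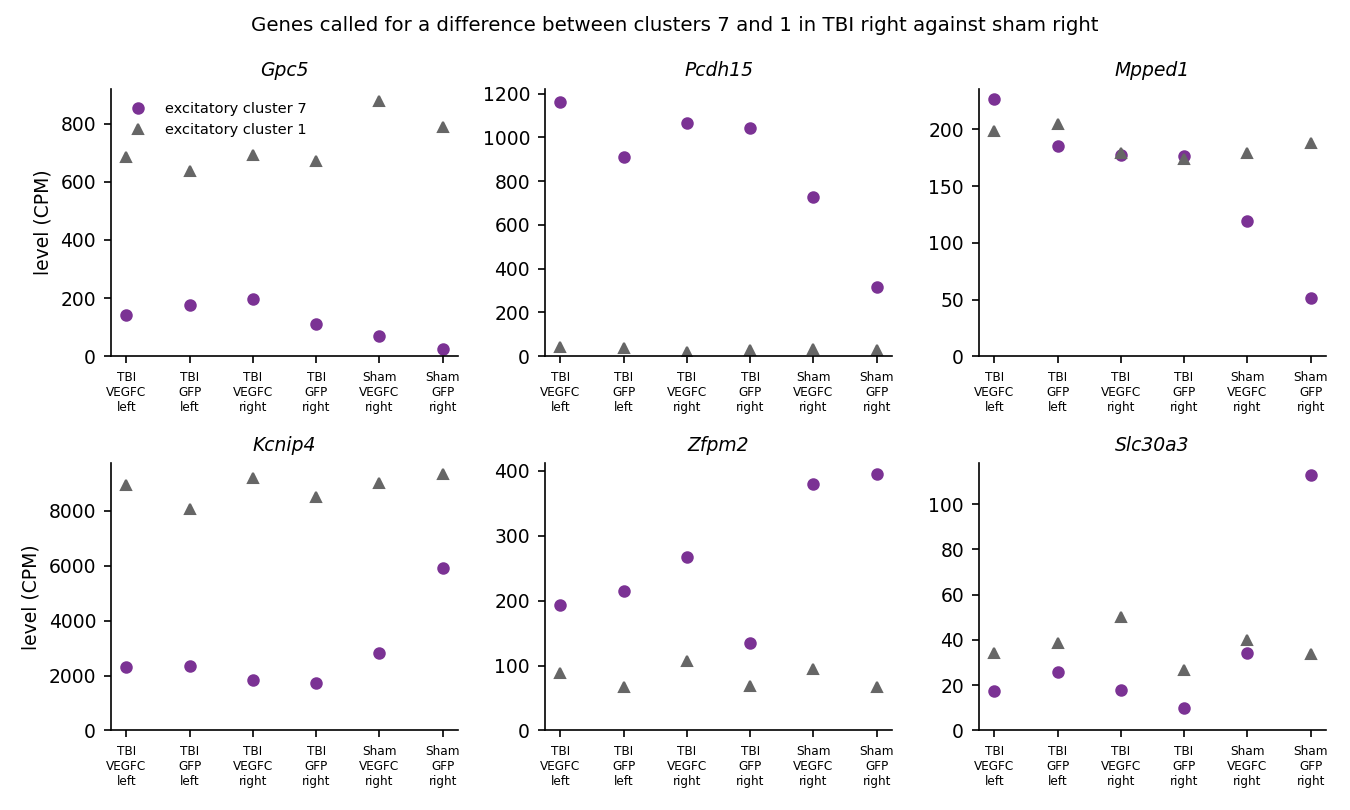
Levels in CPM (vertical axes) of 6 genes called for an interaction, by library, with purple circles for cluster 7 and grey triangles for cluster 1. In cluster 7 the sham GFP right library lies at an end of the range in each gene, such as 5909 CPM of Kcnip4, while cluster 1 varies less for Kcnip4, from 8071 to 9349 CPM.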

How the data were processed

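The deposited matrix holds UMI counts for 26049 genes in 28650 nuclei, made with a 10x Genomics 3' kit per the labels' protocols. Cell Ranger 7.0.1, Scanpy and mm10 are named, without settings, in the submitters' processing notes. The deposited table of nuclei gives the authors' clusters, UMI counts per nucleus, mitochondrial and ribosomal percent of UMIs, and doublet scores from an unnamed tool. Row sums equalled the deposited totals in 26823 nuclei and differed by at most 9 UMIs in the rest. All nuclei were kept, and doublets were not called again because no deposited score exceeds 0.099. Of the cell barcodes, 91 occurred in 2 or more libraries, and 1 nucleus of the cluster carried such a barcode.

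UMI counts of the cluster were summed per library. Genes passing filterByExpr were tested with edgeR 4.0.16 (quasi-likelihood, TMM scaling, context and vector as terms, 2 residual degrees of freedom) in R 4.3.3, with Benjamini-Hochberg adjustment over all genes tested and a threshold of 0.05. The interaction fit had terms for library, cluster, and cluster by context and by vector. DESeq2 1.42.0, limma 3.58.1 (voom), other scalings, other filters and leaving out each library were alternatives. Fits on fewer libraries had fewer residual degrees of freedom, so their numbers of calls are not on the scale of the full fits. Levels are CPM, UMIs per 1000000 summed UMIs. Intervals are exact and cover counting error only. Shares after thinning are those expected, by the hypergeometric formula, when 1000 UMIs are drawn from each nucleus, and no nucleus was too shallow for this.

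Genes are named by a rule. Of the genes that passed with a mean level of 20 CPM or more and 1 sign in every pair of libraries, up to 12 in each direction are given by size of change, or the 5 with the smallest p where fewer than 5 passed. Clone-named models were counted and named only where at most 2 genes passed. Libraries are the replicates, and nothing says that they came from separate groups of mice, so p-values measure only the spread between these libraries. The cluster, the lists and the comparisons were chosen with earlier results of these data known. The split by Dcn was added after the data had been seen. Gene positions are from GENCODE annotation of mm10. A result that involves a withheld item is not reported here.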

Additional observations from a re-analysis of the deposited data

Results flagged for a closer look

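The 2 calls for VEGFC against GFP and the 24 for TBI right against sham right are differences between cluster 7 and cluster 1 under the same contrast, found by the interaction test. Npas3 was the named gene for VEGFC, with an interaction of -1.95 (log2, cluster 7 minus cluster 1, edgeR). It was positive without sham GFP (0.13) and without sham VEGFC (0.10).

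For TBI right against sham right, the interaction was positive for Gpc5 (1.90), Pcdh15 (1.49), Mpped1 (1.18), a CA1 gene, and Etl4 (0.98). It was negative for the Notch coactivator gene Maml2 (-2.99), the synaptic zinc transporter gene Slc30a3 (-2.74), the sulfotransferase gene Chst9 (-1.70), the proteoglycan gene Spock1 (-1.56) and the VEGFC co-receptor gene Nrp2 (-1.47). Spock1 was at 320 and 282 CPM in TBI VEGFC right and TBI GFP right against 459 and 339 CPM in sham VEGFC right and sham GFP right in cluster 7, and at 11.8 and 8.82 CPM (30 and 23 UMIs) against 6.05 and 3.81 CPM (17 and 9 UMIs) in cluster 1, so its interaction sets lower values in cluster 7 against higher values in cluster 1, where UMIs were few. The interaction was also negative for Magi1 (-1.42), Zfpm2 (-1.29), Galnt13 (-1.28), Kcnip4 (-1.28), Trps1 (-1.22) and Slco3a1 (-1.19). Of the genes named here, the sets chosen without sham GFP held Pcdh15 and Mpped1 as higher with Dcn. They held Gpc5, Maml2, Spock1, Zfpm2 and Kcnip4 as lower, and the others were in neither set. Without sham GFP all 15 kept their sign and none passed with edgeR.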

How the results depend on the processing

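No replicate number is shared between libraries, so no pairing by mouse was known. VEGFC and GFP libraries were paired by context, which was a term of the fits. Library was a term in the split by Dcn and the interactions. With each library left out in turn, the calls ran from 0 to 39 for VEGFC against GFP, 0 to 239 for TBI right against sham right, 0 to 23 for TBI left against TBI right, 5 to 13 and 0 to 127 for the VEGFC and TBI interactions, and 135 to 265 for the split by Dcn. Those fits had fewer residual degrees of freedom than the full ones, so the counts do not measure how stable a result is. The mean Dcn level ran from 221 to 256 CPM and the ratio of Dcn to the fibroblast list from 2.16 to 2.29. Without nuclei holding a fibroblast-list UMI, both interactions and TBI right against sham right had 0 calls, and the split by Dcn had 154, with fewer nuclei in each sum. Without a filter on low counts, VEGFC against GFP had 1 call, TBI right against sham right 19 and left against right 1. TBI right against sham right had 0 calls with library totals, with DESeq2 and with limma-voom, VEGFC against GFP had 28 in the 4 TBI libraries, and the split by Dcn had 126 with DESeq2. The cause was not tested. The mean log2 ratio of shares was 0.19 without the TBI right pair and 0.0052 with nuclei holding a Dcn UMI, against -0.40 in full. With doublet scores of at most 0.05, 20 of 489 nuclei were left, 1 in TBI GFP right (1811 UMIs), 16 in sham VEGFC right and 3 in sham GFP right, too few for any fit or share. The Dcn level averaged 1336 CPM over those 3 libraries at equal weight. As 1 of the 3 was a single shallow nucleus, that mean is no measure of Dcn in nuclei with low scores. With collagen genes alone, the ratio of Dcn to the list was 18.9. With each library left out, the VEGFC interaction ran from -2.70 to 0.13 for Npas3 and from -2.16 to 0.60 for Inpp4b, positive without sham GFP and without sham VEGFC. All 24 named genes of the split by Dcn kept their direction under every alternative, and 17 kept their call.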
